A study of Rattus norvegicus with 6 samples.

Results

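The homeobox genes described here are the transcription factor genes of the retina that carry a homeodomain, set beside the Hox genes, in RNA from rat neural retina. The members were chosen by name: 51 retinal and neural homeobox regulators, of which 50 had a row in the table, and every gene whose symbol is Hox followed by a cluster letter and a number, of which 36 had a row. These 86 genes are part of 19623 symbols in the table, compared ignoring case. Pou3f1 had no row under its symbol, and neither did Hoxa4, Hoxa10 and Hoxd11, which RefSeq's 39 rat Hox genes include; the levels of these 4 genes were not analysed here.

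The study compared 6 retinal samples in 3 groups of 2: Royal College of Surgeons (RCS) rats with human neural progenitor cells (hNPCs) injected under the retina, RCS rats with sham surgery, and Long Evans rats with sham surgery. RCS rats lose their photoreceptors because of a mutation in Mertk that stops the pigment epithelium from clearing shed outer segments. Long Evans rats served as the wild type. Surgery was at postnatal day 21, sham eyes received the medium that carries the cells, and all tissue was taken at postnatal day 60 from the grafted part of the neural retina or, in sham eyes, from the same part. The labels do not say whether the 2 samples of a group came from separate animals.

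The table holds a single FPKM for each gene (a fragment number scaled to transcript length and sequencing depth, so that levels can be compared between genes) between 2 confidence bounds, and none of its columns names a sample. Its values were therefore tied to no group, and neither the graft nor the strain could be compared. The values below describe 1 library or 1 pool of libraries, with no replicate, and the bounds quoted are the authors' deposited ones (for the sum of 2 Otx2 rows, computed from them), which say nothing about the spread between animals. An exact 0 is given only as listed at 0, because all 37 rows of the mitochondrial chromosome, whose genes every cell uses, were listed at 0 as well. In RNA from whole tissue, fewer cells of a type and less RNA per cell cannot be told apart.

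A homeodomain is a DNA-binding fold that recognises short AT-rich sites built around a TAAT core, and animals use genes of this class to set the identity of cells and body regions. In the eye, Rax, Six3, Six6, Lhx2 and Pax6 define the field that becomes retina, and Otx2 and Crx drive photoreceptor identity. Other members mark inner retinal neurons: Vsx1 for cone bipolar cells, Lhx1 and Prox1 for horizontal cells, and the Pou4f genes for ganglion cells. Hox genes pattern the hindbrain, the spinal cord and the trunk, and forebrain derivatives such as the retina form in front of their domain. Markers of the tissue were present: Gnat1 of rods stood at 6316 FPKM, Pcp2 of ON bipolar cells at 113 FPKM, Calb2 of amacrine cells at 181 FPKM, Sncg of ganglion cells at 144 FPKM and Glul of Müller glia at 617 FPKM. Markers of neighbouring tissues were present too, with 4 of 5 pigment epithelium markers at 1 FPKM or more (median 20.7 FPKM, that of Rpe65) and 5 of 5 lens markers (median 2.74 FPKM). Of the lens markers Cryaa was at 427 FPKM and the other 4 lay between 1.60 and 4.59 FPKM. The part of these tissues in the levels below was not tested.

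The regulators ranged from a listed 0 to 192 FPKM (Crx, rank 140 of all symbols), while the Hox genes lay at or near the floor. Of the 50 regulators, 32 reached 1 FPKM, against 0 of 36 Hox genes. Among all symbols 61% reached that level, so the 64% of regulators that did so was close to this background, and the share of Hox genes was below it. At 10 FPKM or more there were 12 regulators (24%) and 0 Hox genes, beside 28.9% of all symbols. Above 0 there were 41 regulators (82%) and 1 Hox gene (2.78%), beside 76.4% of all symbols. The median was 2.36 FPKM for the regulators and 0 FPKM for the Hox genes, and it was 3.17 FPKM over all symbols. The regulators summed to 0.223% of all FPKM in the table, and they were 0.255% of the symbols and held 0.261% of the FPKM of rows with a symbol. Crx and Otx2 alone held 48.6% of that sum, and the 10 highest regulators held 87.1%. Both shares take Otx2 as the sum of 2 rows, and they were not computed on its higher row alone.

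**Figure D1:**
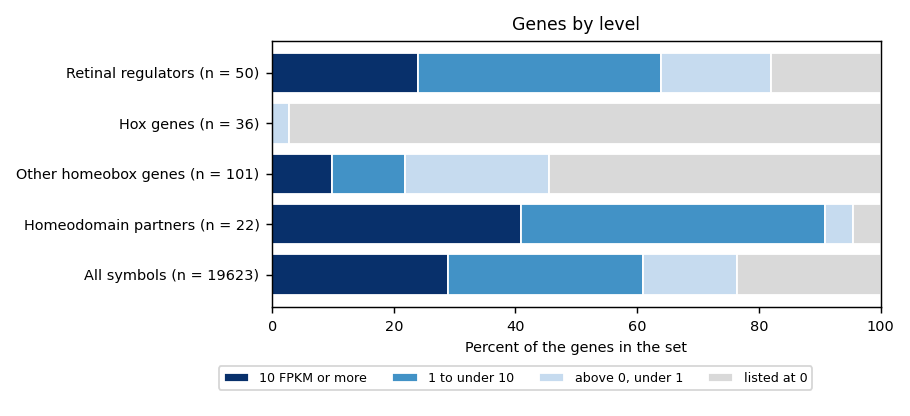
Share of genes (percent, horizontal axis) in 4 classes of FPKM, from 10 FPKM or more (dark) to listed at 0 (grey), for the retinal regulators, the Hox genes, other homeobox genes, homeodomain partners and all symbols. The regulators, with 12 of 50 at 10 FPKM or more, resemble all symbols in their make-up, whereas 35 of 36 Hox genes are in the grey class.

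Otd-type and paired-like regulators led the members. Crx, the cone-rod homeobox gene that activates photoreceptor genes, stood at 192 FPKM (deposited bounds 183 and 201), rank 140 of all symbols. Its row (ENSRNOG00000013890) lies at chr1:79009896-79015569 in build rn5, as the file gives it. Crx protein is known to bind sites of the form TAATCC, and this motif was therefore sought, on both strands, in the window from 250 bases before to 50 after each gene start in RefSeq (build GRCr8). The Crx window held 2 copies, both as the reverse complement GGATTA, starting 170 and 97 bases before the start. They are shown with their flanks, in the direction of the gene and with the motif in capitals, because Crx was the highest regulator and, of the 37 regulators with a matched window, the only 1 with more than a single copy; the first lies at chr1:85682005-85682034 and the second at chr1:85681932-85681961, on the minus strand.
Crx upstream site: ggtggtggcggtGGATTAagcagacggtgc
Crx downstream site: ccaccttccctgGGATTAcccttcgagatc
At least 1 copy was present in 2 of 39 windows of regulators (those of Crx and Meis3), in 0 of 21 windows of Hox genes and in 7.17% of all 33469 windows, and 2 or more copies were present in 0.359% of all windows. A match describes the letters of the window and does not show binding.

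Otx2, which acts before Crx in photoreceptor precursors and is also kept in bipolar cells, stood at 180 FPKM (173 and 186) as the sum of 2 rows. The row written Otx2 (chr15:29426093-29430790) was at 109 FPKM (104 and 113), and the row written OTX2 (chr15:29442025-29450586) was at 70.9 FPKM (66.3 and 75.4). The rows lie 11.2 kb apart, and RefSeq has a single Otx2 gene. Whether both are pieces of that gene was not tested. The bounds of the Otx2 sum overlapped with those of Crx, and on the higher row alone Otx2 was below Crx beyond the bounds and above Pax6. Otx1, a relative with roles in the brain and pigment epithelium, was at 2.55 FPKM (1.51 and 3.60), and the Otx2 sum exceeded it 70.3 times (interval 46.7 to 106), or 42.6 times (28.3 to 64.2) on the higher row alone. The interval of each ratio here combines the deposited bounds of both genes, taken as 2 standard errors of counting error.

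Rax, an eye field gene that photoreceptors and Müller glia also use, was at 44.5 FPKM (40.3 and 48.8). Vsx1, which marks subsets of cone bipolar cells, was at 4.57 FPKM (3.82 and 5.33), so that Crx exceeded it 42.0 times (35.3 to 49.9). All 5 members of this family reached 1 FPKM, and the bounds of Rax overlapped with those of no other member of the family.

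Of the 3 PAX genes, 1 was above 0. Pax6, needed for eye formation and kept in amacrine, ganglion and horizontal cells, was at 97.1 FPKM (92.2 and 102), the third highest regulator. Crx was 1.98 times Pax6 (1.84 to 2.12), and Pax6 was 2.18 times Rax (1.96 to 2.43). Pax2, which marks the optic stalk and the astrocytes of the optic nerve head, and Pax3, a gene of neural crest and muscle precursors, were both listed at 0.

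Among the sine oculis-type genes Six2 to Six6, only the eye field genes Six3 and Six6 were at 1 FPKM or more. Six3 was at 22.1 FPKM (19.1 and 25.1) and Six6 at 5.11 FPKM (4.45 and 5.78), a ratio of 4.32 (3.58 to 5.21). Six5 was at 0.332 FPKM (0.0972 and 0.567), Six4 at 0.127 FPKM (0.0423 and 0.211), and Six2, a gene of kidney progenitors, was listed at 0. Their positions pair them: the rows of Six3 and Six2 lie 60.9 kb apart on chromosome 6, and those of Six6 and Six4 lie 161 kb apart on the same chromosome. In each pair the eye field gene was the higher.

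Of the 9 LIM-homeodomain genes, 7 reached 1 FPKM. Isl1, used by ganglion cells, starburst amacrine cells and ON bipolar cells, was at 27.5 FPKM (24.3 and 30.8). Its relative Isl2, found in a subset of ganglion cells, was at 2.17 FPKM (1.36 and 2.98), and the ratio of Isl1 to Isl2 was 12.7 (8.59 to 18.7). Lhx2, of the eye field and Müller glia, was listed at 17.3 FPKM, but its row carries the status LOWDATA and bounds of 0 and 27.5 FPKM, so its level is uncertain; it was the only member row with that status.

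Lhx9, of amacrine cell subsets, was at 6.67 FPKM (4.97 and 8.38). Lhx4, of cone bipolar cells, was at 4.70 FPKM (3.60 and 5.79), and Lhx3, its relative that also specifies motor neurons, was at 1.46 FPKM (0.729 and 2.19), a ratio of 3.22 (1.85 to 5.59). Lhx1, a horizontal cell gene, was at 1.19 FPKM (0.716 and 1.67). Lhx6 and Lhx8, which specify interneurons and cholinergic neurons of the forebrain, were both listed at 0.

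The 6 genes of the MEIS and PBX families all reached 1 FPKM, with a median of 19.5 FPKM. These proteins carry a homeodomain with a longer loop and bind DNA together with other homeodomain proteins, Hox proteins among them. Pbx3 was at 29.8 FPKM (27.7 and 31.9), Meis2 at 28.5 FPKM (26.6 and 30.4) and Meis1 at 27.0 FPKM (25.0 and 28.9). The bounds of neighbours among these 3 genes overlapped, and the ratio of Meis2 to Meis1 was 1.06 with an interval of 0.957 to 1.17, so their order was not resolved. Pbx2 was at 12.1 FPKM (10.8 and 13.3), Meis3 at 6.57 FPKM (5.19 and 7.96) and Pbx4 at 1.99 FPKM (1.25 and 2.73). Pbx3 exceeded Pbx2 by 2.47 times (2.18 to 2.80) and Pbx4 by 15.0 times (10.2 to 21.8), and Meis1 exceeded Meis3 by 4.10 times (3.28 to 5.12). Transcripts of partners known from Hox complexes were thus present in RNA in which the Hox genes were listed at or near 0.

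Prox1, which marks horizontal cells, AII amacrine cells and the lens, was at 10.8 FPKM (9.88 and 11.8). It was 5.93 times Onecut1 (4.37 to 8.04), a horizontal and ganglion cell gene at 1.83 FPKM (1.29 and 2.36). Onecut2 was at 0.153 FPKM with bounds of 0 and 0.417 FPKM. Satb1, a chromatin organiser with a divergent homeodomain, was at 3.57 FPKM (2.93 and 4.21).

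The Iroquois genes lie in 2 clusters, and the table resolved differences inside both. On chromosome 19, Irx6 was at 4.97 FPKM (4.13 and 5.81), Irx5 at 0.713 FPKM (0.283 and 1.14) and Irx3 at 0.238 FPKM (0 and 0.476). Irx6 and Irx5 are known from cone bipolar cells of the mouse, and Irx6 exceeded Irx5 by 6.97 times (3.73 to 13.0). On chromosome 1, Irx4 was at 1.24 FPKM (0.825 and 1.65), Irx2 at 0.435 FPKM (0.194 and 0.676) and Irx1 at 0.0379 FPKM (0 and 0.114), with Irx4 at 2.85 times Irx2 (1.49 to 5.43). Irx6 and Irx3 stood 98.5 kb apart. The gaps from Irx3 to Irx5, from Irx4 to Irx2 and from Irx2 to Irx1 were 572, 614 and 632 kb.

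The Pou4f genes, known from ganglion cells, were low but detected. Pou4f1 (Brn3a) was at 3.12 FPKM (2.07 and 4.18), Pou4f2 (Brn3b) at 2.73 FPKM (2.19 and 3.27) and Pou4f3 (Brn3c) at 1.77 FPKM (1.24 and 2.29). Pou4f1 and Pou4f2 were not told apart, with a ratio of 1.14 (0.773 to 1.69). Pou4f2 was 1.54 times Pou4f3 (1.08 to 2.21), although the deposited bounds of these 2 genes overlapped. The other POU genes were led by Pou6f1 at 8.83 FPKM (7.62 and 10.03), which was 3.38 times the widely expressed Pou2f1 (Oct-1; 2.59 to 4.41) at 2.61 FPKM (2.01 and 3.21). Pou3f2 (Brn2), a gene of developing neurons, was at 0.572 FPKM (0.168 and 0.977).

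Of the last group, Barhl2, an amacrine and ganglion cell gene, was the only 1 at 1 FPKM or more, at 4.95 FPKM (3.86 and 6.03). Lhx9 was 1.35 times Barhl2 with an interval of 0.963 to 1.89, so these amacrine subset genes were not resolved. Gbx2, known from the boundary of midbrain and hindbrain, was at 0.414 FPKM (0.0760 and 0.752) from its row on chromosome 9. A second row written GBX2, at 0, lies on chromosome 4 between Asb10 and Agap3, where RefSeq places Gbx1; it adds nothing to the sum. Barhl1, Emx2, Dlx1 and Dlx2 were listed at 0, the last 2 as neighbours 10.6 kb apart on chromosome 3.

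**Figure D2:**
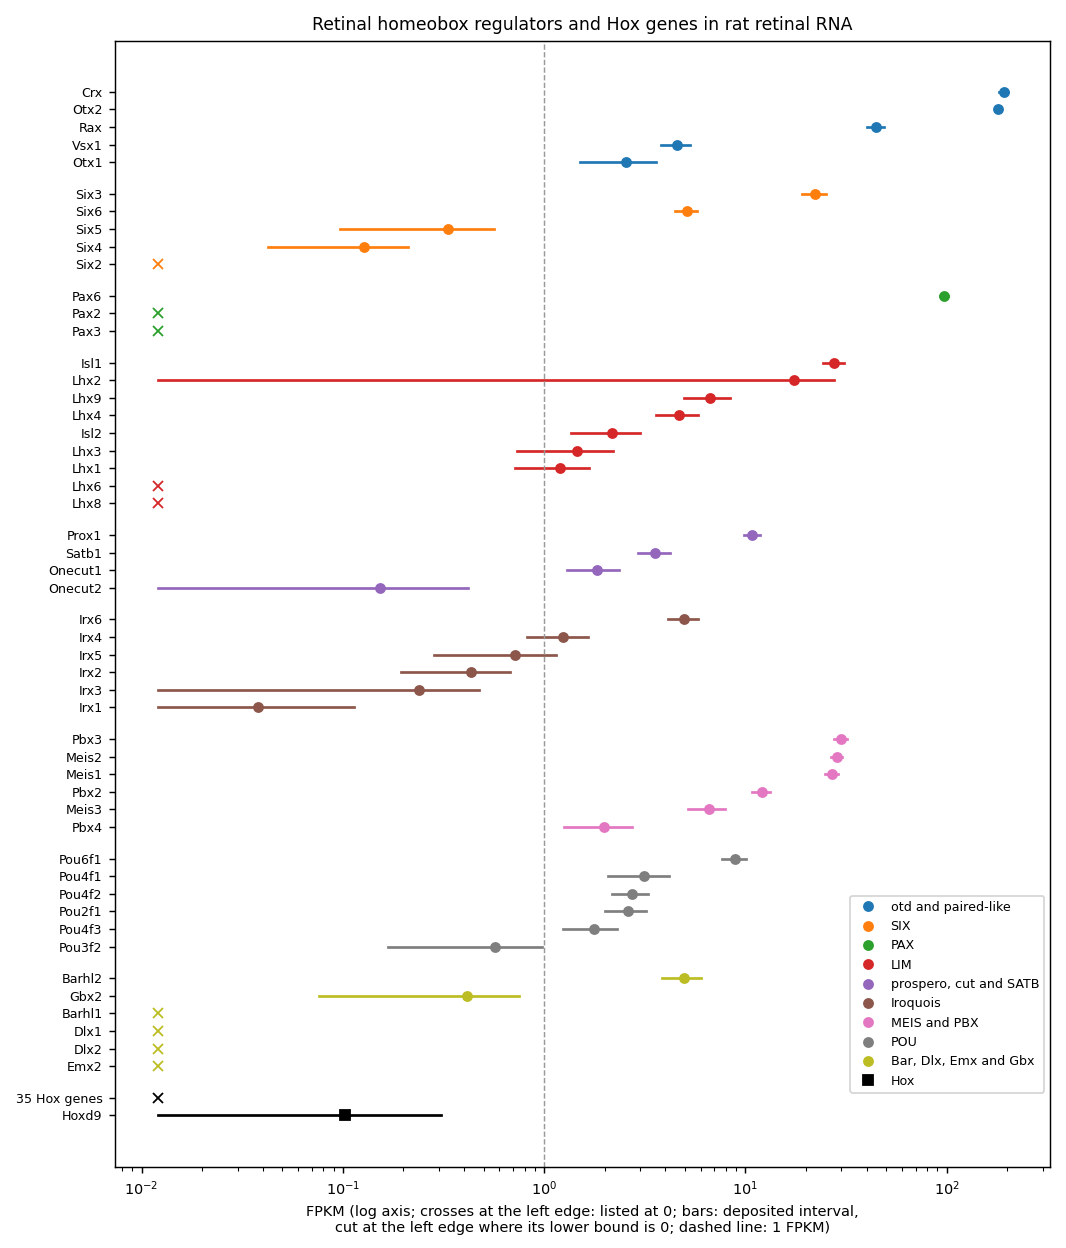
FPKM (log axis) of the 50 regulators with a row, by family, and of the Hox genes at the bottom; points are levels, bars the deposited bounds, and crosses at the left edge genes listed at 0. Crx and Otx2 lie above 100 FPKM, 9 regulators and 35 Hox genes are crosses, and Hoxd9 lies at 0.102 FPKM.

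In the order of the 32 regulators at 1 FPKM or more, 28 of the 31 pairs of neighbours had overlapping bounds, so the order is firm only over larger steps. The members just above 1 FPKM were Lhx1 (1.19 FPKM), Irx4 (1.24 FPKM) and Lhx3 (1.46 FPKM), and those just below were Irx5 (0.713 FPKM), Pou3f2 (0.572 FPKM) and Irx2 (0.435 FPKM).

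Sorted by the cell type each regulator is known from, with genes allowed in several lists, the levels were uneven. Photoreceptor regulators (Crx and Otx2) had a median of 186 FPKM and amacrine cell regulators, of which 7 of 7 reached 1 FPKM, a median of 27.0 FPKM. The regulators of Müller glia and progenitors had a median of 22.1 FPKM (5 of 5), those of bipolar cells 4.70 FPKM (6 of 7) and those of ganglion cells 2.93 FPKM (7 of 8). Horizontal cell regulators had the lowest median of these retinal lists, 1.51 FPKM (3 of 4). Beside these counts, 61% of all symbols reached 1 FPKM. The lists hold few genes and share some of them (Pax6, Isl1, Otx2 and Six3), so their counts do not show enrichment. The markers fixed for the same cell types, among them the transcription factor gene Nrl, had medians of 1992 FPKM for rods, 28.4 FPKM for cones, 42.2 FPKM for amacrine cells, 114 FPKM for Müller glia, 54.7 FPKM for bipolar cells, 87.2 FPKM for ganglion cells and 23.7 FPKM for horizontal cells. The marker median was above the regulator median for rods, amacrine cells, Müller glia, bipolar cells, ganglion cells and horizontal cells, and below that of the photoreceptor regulators for cones. The list kept for the forebrain and motor neurons held Dlx1, Dlx2, Emx2, Gbx2, Lhx6, Lhx8, Pou3f2 and Pax3. In it 0 of 8 reached 1 FPKM, beside 61% of all symbols, and 6 were listed at 0. This count depends on the sorting. Gbx2 and Pax3 are also known from elsewhere, and Lhx3, which also specifies motor neurons, was sorted under bipolar cells (1.46 FPKM).

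The Hox genes of the 4 clusters had a single signal among them. Hoxd9, a gene of the posterior trunk and limb, was at 0.102 FPKM with deposited bounds of 0 and 0.306 FPKM. If the bounds are 2 standard errors of counting error, this value rests on 1 fragment. The other 35 Hox genes were listed at 0: 9 of 9 in cluster A, 10 of 10 in cluster B, 9 of 9 in cluster C and 7 of 8 in cluster D. Of the regulators, 40 of 50 lay above Hoxd9, and 31 had a lower bound above its upper bound. The regulators not above Hoxd9 were the 9 listed at 0 and Irx1, at 0.0379 FPKM. Most of all symbols lay above Hoxd9 as well: it ranked 14373 of 19623, with 26.8% of symbols lower. The count of 40 therefore does not set the regulators apart from other genes. By the same reading of the bounds, 1 fragment was worth a median of 0.0555 FPKM over the 41 regulators above 0, so low values here rest on a few fragments, and a 0 is not shown to be absence.

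The zeros in cluster A need care. Several of its genes, Hoxa9 and Hoxa11 among them, have more than 1 row, and 7 Hox rows lie on an unplaced contig. All 92 rows on unplaced contigs were listed at 0, whatever the gene. Whether reads that match several copies were lost was not tested. Among the 612 other symbols with several rows 67.2% were above 0, beside 76.4% of all symbols. How alike the rows of those symbols are was not examined, so this share does not decide the question. Clusters B, C and D have 1 row for each gene, on numbered chromosomes, and 26 of their 27 genes were listed at 0.

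Apart from the Hoxd9 row, rows at 0 filled the clusters from end to end. In rn5, the span of cluster A (175 kb of chromosome 4) holds repeated rows of Hoxa6, Hoxa9 and Hoxa11, so its length depends on that assembly. Cluster B spans 184 kb of chromosome 10, cluster C 118 kb of chromosome 7 and cluster D 96.6 kb of chromosome 3. Another 13 rows overlap these spans, among them microRNA genes of the mir-10, mir-196 and mir-615 families, and 0 of 13 were above 0; a table of gene FPKM does not measure mature microRNAs. Beside the clusters the picture was mixed. Of 34 rows within 300 kb of either end, 21 were above 0 and 16 reached 1 FPKM. Among all symbols these shares were 76.4% and 61%, but the rows beside the clusters include some without a symbol. To the right of cluster A (3 rows) and of cluster B (2 rows) 0 rows were above 0. The nearest named rows at 1 FPKM or more, a choice that sets their level, were Lnp (10.8 FPKM, 94.2 kb away) and Mtx2 (18.1 FPKM, 63.3 kb) at the ends of cluster D. They were Tbca (92.1 FPKM, 28.6 kb) and Smug1 (4.03 FPKM, 121 kb) at the ends of cluster C. The Tbca row spans only 324 bases, and whether its reads belong to another copy of the gene was not tested. At cluster B the nearest such rows were Atp5g1, a subunit of the mitochondrial ATP synthase (62.0 FPKM, 131 kb), and Snx11 (8.36 FPKM, 403 kb). At cluster A they were Skap2 (1.08 FPKM, 157 kb) and Hibadh (23.7 FPKM, 303 kb). The homeobox genes Evx1 and Evx2, at the ends of clusters A and D, were listed at 0 like the clusters themselves.

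**Figure D3:**
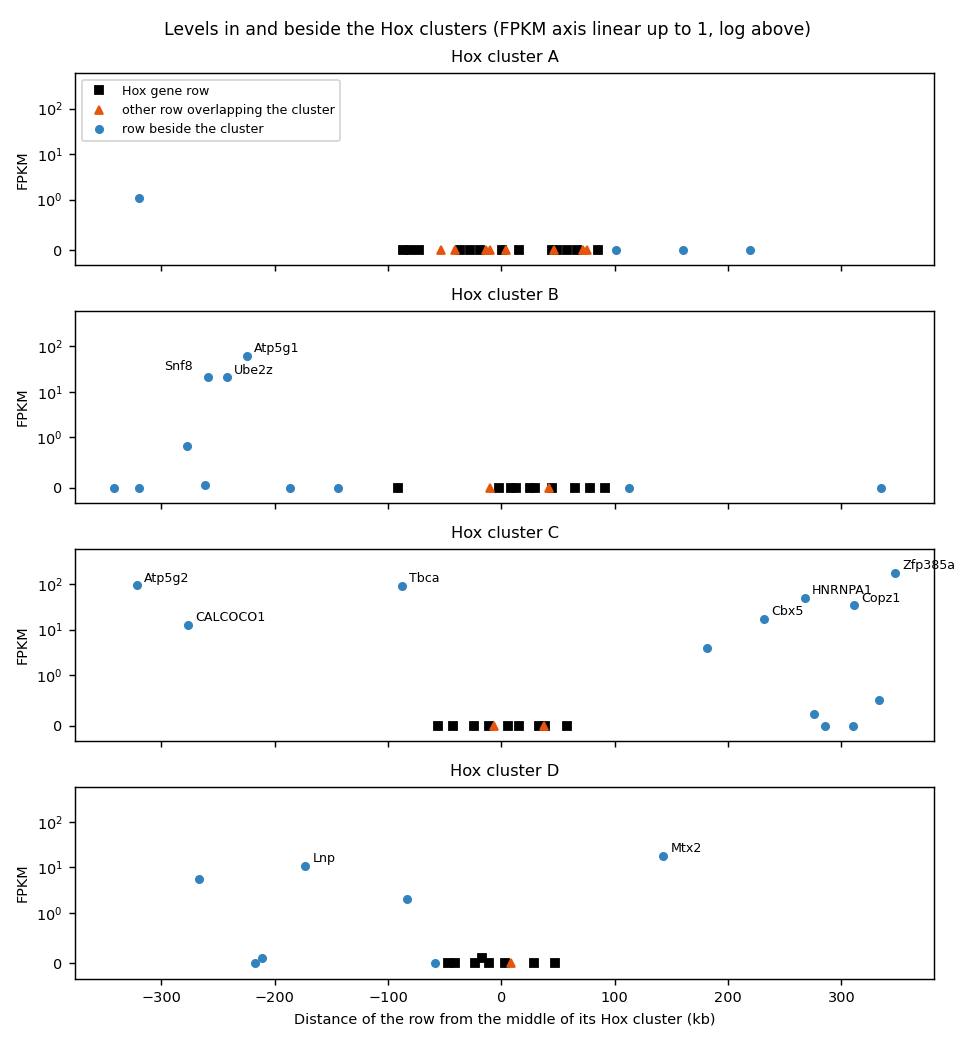
FPKM of each row (linear up to 1, log above) against its distance in kb from the middle of the Hox cluster, for clusters A to D; squares are Hox rows, triangles other rows that overlap the cluster and circles rows beside it, out to 300 kb from each end. All squares and triangles lie at 0 except Hoxd9 in cluster D, at 0.102 FPKM, while rows such as Atp5g1 (62.0 FPKM) and Mtx2 (18.1 FPKM) lie beside the clusters.

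Other homeobox genes, from a list of 104 of which 101 had a row, lay between the regulators and the Hox genes in their counts: 22 of 101 reached 1 FPKM, against 61% of all symbols, and 55 were listed at 0. Among the highest were Pax4 at 93.5 FPKM (87.6 and 99.4), a gene known from pancreatic islets and from rat photoreceptors; Hopx at 37.7 FPKM (33.9 and 41.5), whose homeodomain does not bind DNA; Adnp at 27.3 FPKM (26.0 and 28.5); Zhx1 at 17.7 FPKM (16.5 and 18.8); and Pknox1, a relative of the MEIS genes, at 11.99 FPKM (10.3 and 13.7). Pax4 was level with Pax6 within the deposited bounds.

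Genes of proteins that work with homeodomain factors had a median of 6.64 FPKM, with 20 of 22 reaching 1 FPKM, beside 61% of all symbols. Nrl, the rod-fate factor that acts with Crx, was at 633 FPKM (613 and 653), and its target Nr2e3 was at 153 FPKM (144 and 161). They were followed by Aes, a short Groucho-type corepressor, at 100.4 FPKM (95.0 and 106), and by Ssbp2 (41.5 FPKM; 37.5 and 45.4) and Ssbp3 (26.0 FPKM; 23.8 and 28.3), which stabilise the Ldb1 complexes of LIM-homeodomain proteins. Polycomb and trithorax genes encode chromatin complexes known to keep Hox genes off or on. All 24 on the list reached 1 FPKM, beside 61% of all symbols, with a median of 12.7 FPKM. Rbbp7 was at 51.3 FPKM, Suz12 at 38.3 FPKM and Bmi1 at 34.8 FPKM, and the lowest was Cbx2 at 1.17 FPKM. Whether these complexes act on the Hox genes in this tissue was not tested.

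The promoter windows show a feature that the choice of members did not use. CpG-rich promoters, here those with an observed CpG count of at least 0.6 of that expected from their C and G content, made up 26 of 39 windows of regulators (66.7%), 19 of 21 windows of Hox genes (90.5%) and 34.4% of all windows. Of the Hox windows, 19 belong to clusters A and D, and all 19 were CpG-rich; the 2 from clusters B and C, of Hoxb1 (ratio 0.378) and Hoxc4 (0.230), were not. Windows were matched by symbol for 37 regulators and 20 Hox genes, among them the 3 Hox genes without a row. The median ratio of observed to expected CpG was 0.721 for the regulators, 0.818 for the Hox genes and 0.392 for all windows. Among the regulators at 10 FPKM or more 4 of 8 windows were CpG-rich, from 1 to 10 FPKM 11 of 17, and under 1 FPKM 11 of 14. Of the 12 regulators at 10 FPKM or more, Otx2, Meis2, Pbx3 and Prox1 had no matched window. Lhx2, whose level is uncertain, gave 1 of the 4 CpG-rich windows. Genes are not replicates, and no test was made. Crx, at the highest level, had the lowest ratio among the regulators with a window, 0.208. Of the regulators and of the Hox genes, 1 CpG-poor and 1 CpG-rich window each are shown, to make visible that both kinds occur in both sets: Crx and Isl1, and Hoxc4 and Hoxd13. Each is 300 bases long, in the direction of the gene and with every CG in capitals. They hold 5, 21, 6 and 36 CG pairs, in that order, and lie at chr1:85681803-85682102 (minus strand), chr2:49823393-49823692 (minus), chr7:136048809-136049108 (plus) and chr3:79977827-79978126 (plus) in GRCr8.
Crx promoter: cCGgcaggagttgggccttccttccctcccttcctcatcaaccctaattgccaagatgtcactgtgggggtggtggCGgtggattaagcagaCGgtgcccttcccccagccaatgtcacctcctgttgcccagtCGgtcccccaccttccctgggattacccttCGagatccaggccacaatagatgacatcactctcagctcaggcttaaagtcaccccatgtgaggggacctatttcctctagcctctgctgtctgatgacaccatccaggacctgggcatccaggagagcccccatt
Isl1 promoter: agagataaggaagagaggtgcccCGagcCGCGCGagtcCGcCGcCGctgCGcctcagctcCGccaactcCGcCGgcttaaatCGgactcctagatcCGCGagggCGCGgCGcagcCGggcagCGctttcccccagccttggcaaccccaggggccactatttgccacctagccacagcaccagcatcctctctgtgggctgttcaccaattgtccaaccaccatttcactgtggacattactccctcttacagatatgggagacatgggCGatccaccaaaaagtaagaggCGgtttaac
Hoxc4 promoter: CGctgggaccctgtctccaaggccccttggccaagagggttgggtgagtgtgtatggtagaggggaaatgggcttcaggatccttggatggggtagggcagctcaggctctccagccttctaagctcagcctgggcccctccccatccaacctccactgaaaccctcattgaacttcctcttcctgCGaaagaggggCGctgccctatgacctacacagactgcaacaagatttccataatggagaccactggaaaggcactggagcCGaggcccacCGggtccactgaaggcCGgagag
Hoxd13 promoter: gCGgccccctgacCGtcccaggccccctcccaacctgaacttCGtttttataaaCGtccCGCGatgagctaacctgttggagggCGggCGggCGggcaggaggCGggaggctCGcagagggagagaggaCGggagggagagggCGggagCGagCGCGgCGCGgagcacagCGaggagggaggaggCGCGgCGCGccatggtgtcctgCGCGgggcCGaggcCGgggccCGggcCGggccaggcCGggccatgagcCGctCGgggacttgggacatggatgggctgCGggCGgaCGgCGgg
The homeodomain core TAAT, on either strand, was present in 12 of 39 windows of regulators (30.8%), in 14 of 21 windows of Hox genes (66.7%) and in 60.6% of all windows. The longer site TAATTA, which contains that core, was present in 0 windows of regulators, in 1 window of a Hox gene (Hoxd11) and in 5.36% of all windows. Base composition was not accounted for: the median GC content was 64.7% for regulators, 62.3% for Hox genes and 51.7% for all windows.

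**Figure D4:**
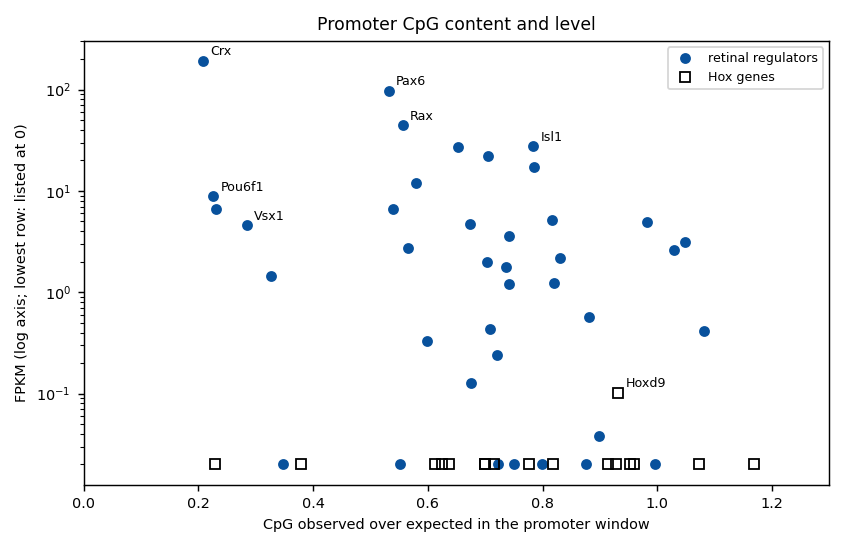
FPKM (log axis, genes listed at 0 in the lowest row) against the ratio of observed to expected CpG in the promoter window, for the regulators (filled circles) and the Hox genes (open squares) that matched a RefSeq window. Crx stands alone at the upper left, at 192 FPKM and a ratio of 0.208, and the Hox squares lie along the bottom, mostly to the right of 0.6.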

How the data were processed

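Per the labels' protocols, RNA came from isolated neural retina by a spin-column kit, and sequencing libraries by an Ion Torrent total RNA kit. The authors deposited 1 gene table of FPKM values with a lower and an upper bound, in the layout of Cufflinks, per the file headers; the submitters' processing notes name Cufflinks 2.0.8 and build rn5. Not given in the sources used here are the aligner, the annotation, the confidence level and any pooling.

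Members and lists were chosen with earlier results of these data known. Rows sharing a symbol, ignoring case, were summed, with bounds from the root of summed squares (Python 3.11.15, pandas 2.3.3, numpy 2.4.6, matplotlib 3.10.9). Implied fragments were computed from the upper bound taken as 2 standard errors. A run on simulated data used bounds built with that same formula, so it checked the arithmetic only. It cannot show that the deposited bounds are 2 standard errors of counting error. Implied fragments sum to 6124332 over the table, 12447 of them in the regulators. Among rows with up to 200 implied fragments, 69.6% of 11492 lay within 0.02 of a whole number, as did 23 of 29 member rows. Depth beyond this is unknown, and on this reading the bounds cover counting error only.

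The 3 groups could not be compared, so the planned limma fits were not run and no p-value is given. Values are given for all regulators, the Hox genes above 0 and the highest of the other lists (5 of other homeobox genes and of partners, 3 of Polycomb and trithorax genes), passing to the next where an item is not reported here. The pairs in ratios, the promoter windows and the motifs were chosen after the values were seen. Promoter windows come from RefSeq (GRCr8); gene positions are in rn5 as the file gives them.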

Additional observations from a re-analysis of the deposited data

How the results depend on the processing

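The statement that no Hox gene reached 1 FPKM was unchanged at 0.5 and 5 FPKM, with either deposited bound, with the highest row per symbol, with exact symbols, with rows of status OK and, in a setting added after the data were seen, on numbered chromosomes and X alone. At any value above 0 the count was 1 Hox gene. The regulators at 1 FPKM or more numbered 28 to 41 under the other settings but 16 at 5 FPKM. Leaving out members under 0.1 FPKM gave a median of 4.07 FPKM for regulators and 0.102 FPKM, from Hoxd9 alone, for Hox genes. The share of all FPKM in regulators, 0.223%, was 0.203% with the highest row per symbol, 0.202% with exact symbols, 0.218% with status OK and 0.203% by implied fragments; the first 2 settings drop the second Otx2 row (exact symbols also drop Pou4f1), and the third drops Lhx2. No paired analysis was possible because the single FPKM column is tied to no sample; leaving out replicates and other pseudocounts were not run for the same reason.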
